A study of Mus musculus with 34 samples.

Results

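Igf2, H19 and Mest are imprinted growth genes: each is transcribed mainly from the copy inherited from 1 parent. The genes were taken from the probes of a muscle array whose only annotated gene symbol is Igf2, H19 or Mest. By this rule 5 of the 1200 probes of each value table were members, 3 for Igf2, 1 for H19 and 1 for Mest, and they made up 3 of the 637 genes that a single symbol named. All 5 probes of both tables are described. The rule itself used no measured value, but the members were chosen with earlier results of these data known.

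The study measured total RNA of diaphragm and hindlimb muscle from BL10 and mdx mice on 34 arrays of 2 colours. The mdx mouse lacks functional dystrophin, its muscle goes through rounds of fibre death and repair, and BL10 is the strain without that mutation. The animals were either untreated (18 arrays) or treated with L-arginine (16 arrays), the amino acid from which nitric oxide synthase makes nitric oxide, and were 3, 5, 9 or 12 weeks old. The 4 BL10 groups (diaphragm or hindlimb, untreated or treated) and the 2 treated mdx groups held 4 arrays each, 1 per age, and the 2 untreated mdx groups held 5, with a Sample 1 and a Sample 2 at 12 weeks. Every array carried, in its first channel, RNA labelled as the same strain at 12 weeks (on 1 treated array, the channel labels give a strain other than the title), so each value is a ratio to the 12-week RNA of that strain, not a level. Since each strain has its own 12-week RNA, a difference between the strains cannot be told apart from one between those references. The channel labels do not say whether the 12-week RNA set against treated mice was itself from treated mice. Whether the arrays came from separate animals is not given in the labels, so the p-values below measure the spread between these arrays only. All treated arrays lie in one value table and all untreated arrays in the other, on different array platforms. A difference between treated and untreated arrays therefore cannot be told apart from one between the tables.

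Igf2 encodes insulin-like growth factor 2, a secreted growth factor of the fetus that acts through the IGF1 receptor, while the IGF2 receptor Igf2r takes it up for breakdown; it is known to rise again when muscle regenerates. H19 is the neighbouring non-coding RNA, transcribed from the maternal copy while Igf2 is transcribed from the paternal one, under a shared imprinting control region and shared enhancers. Mest (mesoderm-specific transcript) is a paternally expressed gene of mesoderm with the fold of a hydrolase. All 3 are abundant before birth and decline afterwards in most tissues. They have also been assigned to 1 network of imprinted growth genes.

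H19 and Igf2 lie on chromosome 7 and Mest on chromosome 6, and the RefSeq gene table placed 1 other gene, Gm33148, between H19 and Igf2. Each of the 3 genes also hosts a microRNA, which no member probe measures. Their mature sequences (RefSeq, GRCm38.p6) are shown because they are the short regulatory products of these transcripts, with the seed, bases 2 to 8, in capitals.
miR-483-5p of Igf2, chr7:142654968-142654989, minus strand: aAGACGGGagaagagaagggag
miR-483-3p of Igf2, chr7:142654932-142654952, minus strand: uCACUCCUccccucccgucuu
miR-675-5p of H19, chr7:142577112-142577133, minus strand: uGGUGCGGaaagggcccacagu
miR-675-3p of H19, chr7:142577078-142577099, minus strand: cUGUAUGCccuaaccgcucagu
miR-335-5p of Mest, chr6:30741314-30741336, plus strand: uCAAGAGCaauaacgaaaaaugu
miR-335-3p of Mest, chr6:30741354-30741375, plus strand: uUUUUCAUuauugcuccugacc
No seed was shared between the 6 sequences.

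The 250 bases before a RefSeq start of Igf2 and of Mest are shown because the ratios of these genes moved together on the untreated arrays, with 2 motifs in capitals: the GC box GGGCGG, searched on both strands, and the E-box CANNTG, which reads the same on both strands and is bound by myogenic factors.
Igf2, chr7:142657497-142657746, minus strand: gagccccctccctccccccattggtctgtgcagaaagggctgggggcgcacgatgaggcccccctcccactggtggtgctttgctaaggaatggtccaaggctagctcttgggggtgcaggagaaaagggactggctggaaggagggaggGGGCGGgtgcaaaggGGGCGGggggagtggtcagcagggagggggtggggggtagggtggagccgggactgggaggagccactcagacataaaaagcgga
Mest, chr6:30737800-30738049, plus strand: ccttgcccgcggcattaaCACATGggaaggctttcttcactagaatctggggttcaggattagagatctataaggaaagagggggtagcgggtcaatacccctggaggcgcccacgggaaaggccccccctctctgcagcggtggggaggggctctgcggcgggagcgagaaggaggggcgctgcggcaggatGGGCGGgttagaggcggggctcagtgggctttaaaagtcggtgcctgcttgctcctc
The Igf2 window held 2 GC boxes and no E-box, and the Mest window held 1 of each; no match overlapped another. Over all 32851 promoter windows of this length, 32.7% held a GC box and 66.2% an E-box. RefSeq lists further starts of both genes, whose windows are not shown and differ in these motifs. The Igf2 window at chr7:142666817-142667066, for example, held 2 E-boxes and no GC box. The relation between Igf2 and Mest was not detected once the few high arrays were left out, as described below. H19 was named only.

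The deposited values were read as linear ratios of the sample over its 12-week RNA, where 1 means equal and 0 on the log2 scale means equal. This direction is likely but not given in the sources used here. If it were the opposite, every log2 value below would change sign. Untreated arrays of different strains, which have different 12-week references, had Spearman correlations over probes down to -0.406, and those of 1 strain down to -0.157. Array medians lay between 0.73 and 1.22. Ratios of 0 or below have no logarithm and count as missing, and 3 untreated BL10 arrays stood apart in this respect: diaphragm at 3 weeks had 168, hindlimb at 3 weeks 225 and hindlimb at 12 weeks 128 such probes of 1200, against at most 53 on any other array. For 1 treated array, BL10 hindlimb at 9 weeks by its title, the strain given for the channels is mdx; it was kept by the title. As ratios hold no levels, the labelled tissue could not be checked through marker levels. The mean log2 ratio of 9 muscle fibre genes ran from -1.20 to 0.81 over the untreated arrays and from -0.06 to 0.35 over the treated ones.

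In treated mice, Igf2 stood higher against 12-week RNA in mdx than in BL10 muscle, at every age and in both tissues. In treated mdx diaphragm the log2 ratio of Igf2, averaged over its 3 probes, was 2.45, 1.77, 1.76 and 1.61 at 3, 5, 9 and 12 weeks, against 0.92, 0.43, -0.23 and -0.50 in treated BL10 diaphragm. All 4 mdx diaphragm arrays lay above all 4 BL10 arrays. In treated hindlimb the mdx values were 2.22, 2.81, 0.92 and 1.57, and the BL10 values 0.52, 0.92, 0.07 and 0.78. Here the groups also did not overlap, though the lowest mdx array, at 9 weeks (0.9214), and the highest BL10 array, at 5 weeks (0.9181), nearly met. Of the genes with a value on all 8 arrays of the tissue, 4.28% had every mdx array above every BL10 array in diaphragm and 4.62% in hindlimb. When arrays of the same age were set against each other, mdx was higher in 8 of 8 pairs, by 0.79 to 2.11, and 3.31% of 574 genes had this pattern. The hindlimb pair at 9 weeks (0.85) uses the treated BL10 array whose channel labels name mdx.

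**Figure D1:**
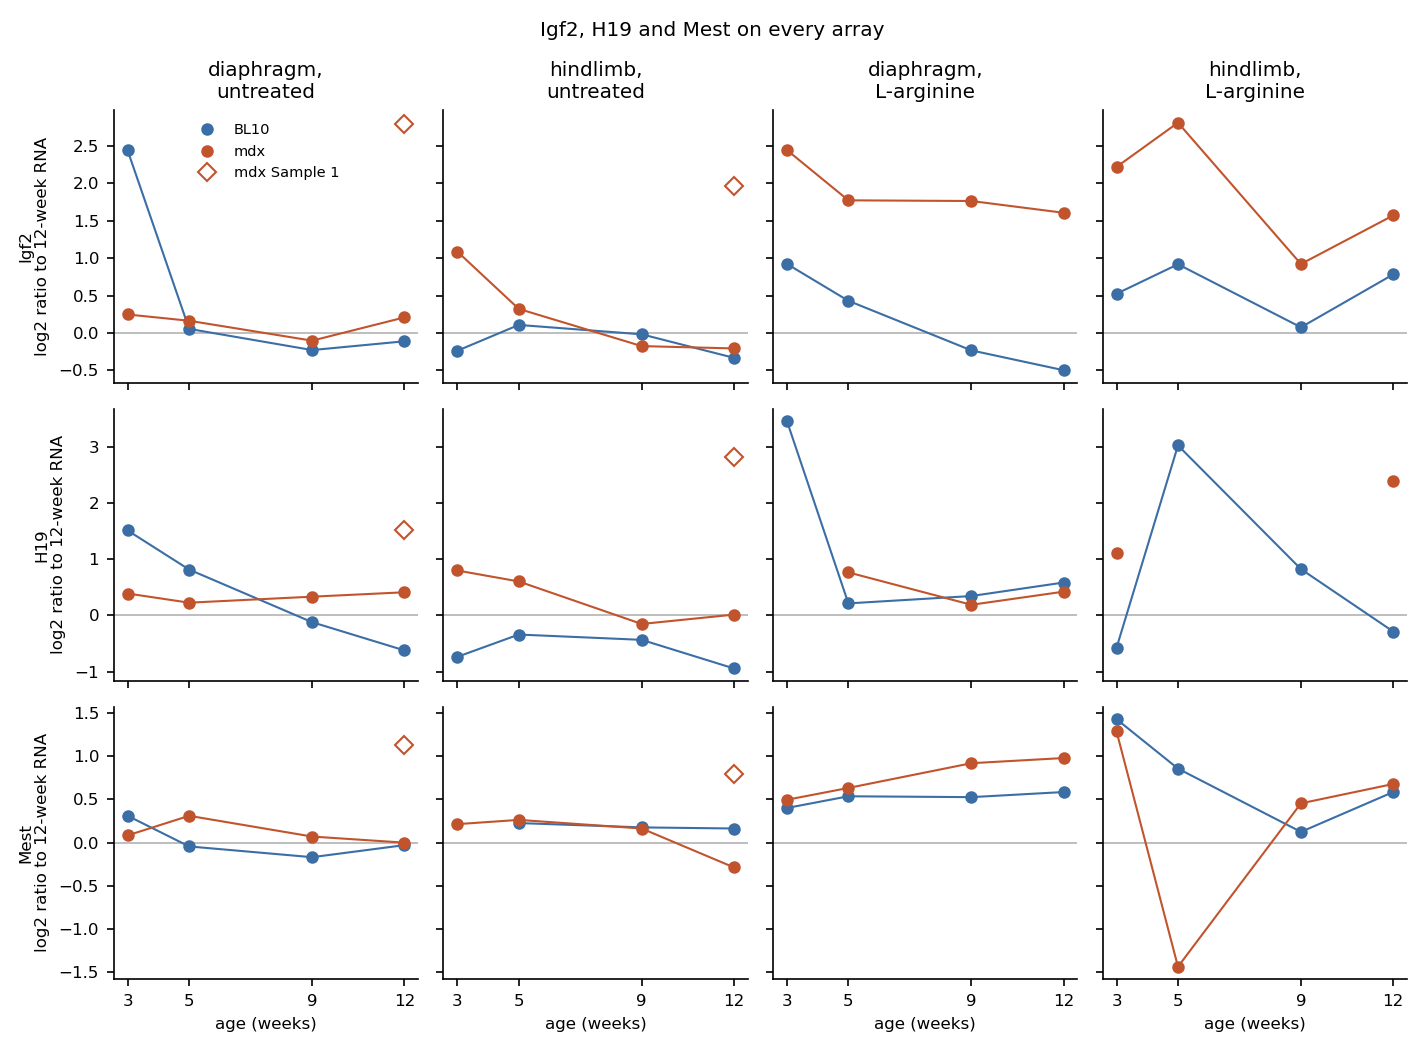
Log2 ratio to 12-week RNA (vertical axis) against age in weeks for Igf2, H19 and Mest on each array, in diaphragm and hindlimb of untreated and L-arginine-treated mice; points are single arrays, lines join arrays of one group, open diamonds are the untreated mdx Sample 1 arrays, and a missing point had a ratio of 0 or below. Treated mdx Igf2 lies between 0.92 and 2.81, while treated BL10 Igf2 lies between -0.50 and 0.92, and both Sample 1 diamonds lie above the other mdx points of their panel for all 3 genes.

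The groups averaged 1.90 ± 0.37 in treated mdx diaphragm and 1.88 ± 0.82 in treated mdx hindlimb, against 0.57 ± 0.37 in BL10 hindlimb and 0.15 ± 0.64 in BL10 diaphragm (log2, SD, n = 4 each). In this order, the 2 mdx groups differed by 0.02 and the 2 BL10 groups by 0.42, both less than their pooled SD, and the step between the strains was 1.31 against a pooled SD of 0.63. Averaged over both tissues, the strain difference of Igf2 in the treated table was 1.52 ± 0.20 on the log2 scale (SE, 16 arrays; 95% interval 1.08 to 1.97; limma with Benjamini-Hochberg adjustment over 633 genes, adjusted p = 0.00445). It had the smallest p of the 633 genes. Called higher in mdx were 10 genes, 1.58% of those tested, and called lower were 0. In diaphragm alone the difference was 1.74 ± 0.29 (limma adjusted p = 0.0408), and Igf2 was the single gene called, 0.158% of those tested. In hindlimb it was 1.31 ± 0.29 and missed the threshold (limma adjusted p = 0.0585), where again 0.158% of genes were called. The strain difference was 0.44 smaller in hindlimb than in diaphragm, with a 95% interval of the hindlimb minus diaphragm value from -1.33 to 0.46 (limma adjusted p = 0.833; 0 genes called, 42 at an unadjusted p under 0.05).

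The call over both tissues held whichever of the 16 arrays was left out (1.40 to 1.63, adjusted p 0.00331 to 0.0193), and it was lost without the arrays of 12 weeks (1.55, limma adjusted p = 0.075) and with the median over probes in place of their mean (1.49, adjusted p = 0.062). The call in diaphragm was less firm: it held only when the array left out was treated mdx diaphragm at 5 weeks, BL10 hindlimb at 3 or 12 weeks, or mdx hindlimb at 5 or 9 weeks, and was lost for the other 11 (1.57 to 1.96 over all 16, limma adjusted p 0.0171 to 0.249). The diaphragm call was also lost with no term for age (1.74, limma adjusted p = 0.226) and with the median over probes (1.45, adjusted p = 0.998). It was lost too with only the diaphragm groups (1.74, limma adjusted p = 0.0634) and without the 12-week arrays (1.62, adjusted p = 0.644). Ratios of 0 or below set to the lowest positive ratio gave 1.74 (limma adjusted p = 0.0583). Single probes 777, 758 and 90 gave 2.36, 2.23 and 0.64 (limma adjusted p = 0.0548, 0.998 and 0.279). Of all 32 alternatives, 20 lost this call and 12 kept it. Without the treated BL10 hindlimb array of unclear label, the call over both tissues also held, while the number of genes called fell from 10 to 2.

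The 3 Igf2 probes did not carry this difference equally, although the annotation gives them 1 RefSeq transcript. Probe 777, by its position in the table, had ratios of 6.38, 7.60, 6.25 and 7.63 in treated mdx diaphragm and 18.76, 17.38, 4.80 and 4.73 in mdx hindlimb, at 3, 5, 9 and 12 weeks. In BL10 it had 2.36, 1.56, 1.06 and 0.86 in diaphragm and 5.96, 2.34, 0.94 and 1.68 in hindlimb. Only the BL10 hindlimb array at 3 weeks reached the mdx range of its tissue. Probe 758 scattered most, from 2.33 to 12.75 in mdx diaphragm and from 1.49 to 19.55 in mdx hindlimb, against 0.42 to 1.74 and 0.33 to 2.46 in BL10. Probe 90 moved least: 1.59 to 2.12 in mdx diaphragm against 0.98 to 1.66 in BL10, and 0.95 to 1.51 in mdx hindlimb against 1.14 to 1.51 in BL10.

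**Figure D2:**
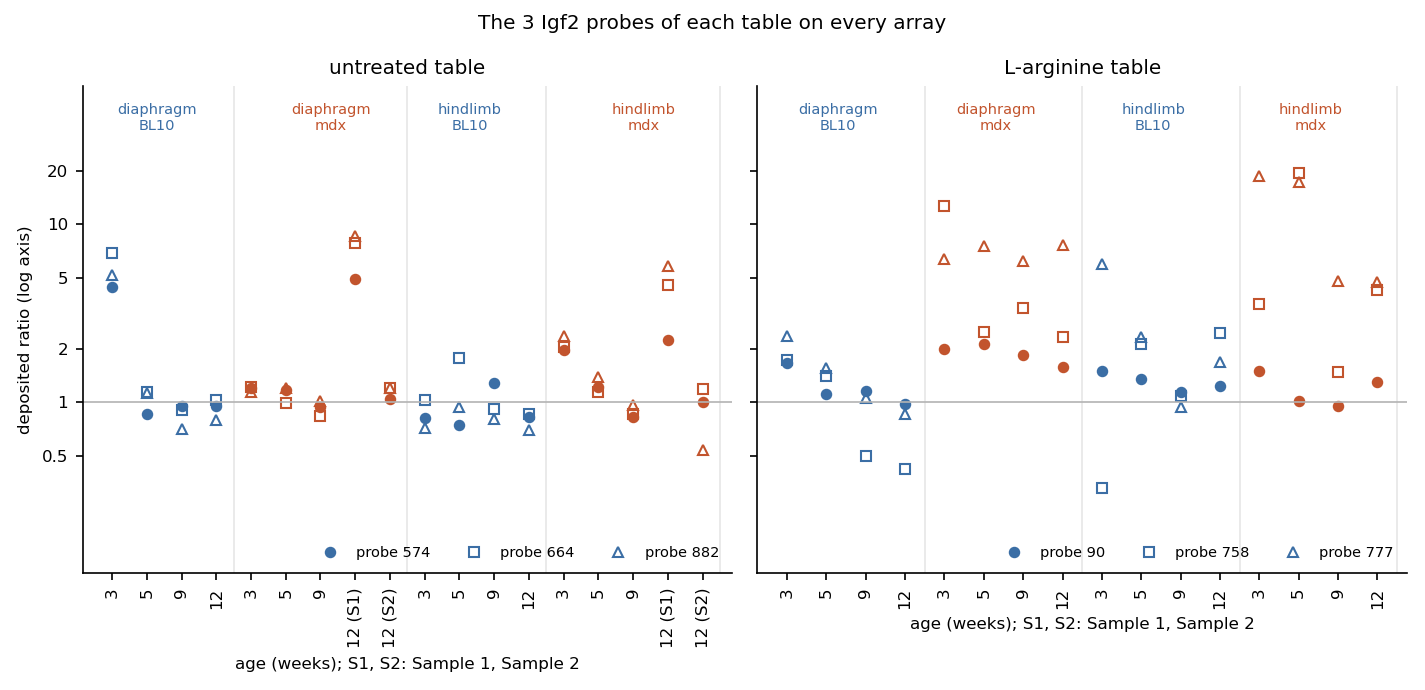
Deposited ratio to 12-week RNA (log axis) of the 3 Igf2 probes of each table on every array, ordered by tissue, strain and age in weeks; each symbol is 1 probe on 1 array and the grey line marks a ratio of 1. In the untreated table the 3 probes lie close together, from 4.45 to 6.87 in BL10 diaphragm at 3 weeks for example, while in treated mdx hindlimb at 5 weeks they run from 1.02 to 19.55.

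Tested one by one over 1192 probes of the treated table, the strain difference over both tissues was 2.23 ± 0.27 for probe 777 (limma adjusted p = 0.00315), 2.10 ± 0.57 for probe 758 (adjusted p = 0.122) and 0.25 ± 0.12 for probe 90 (adjusted p = 0.406). In hindlimb alone, probe 777 had 2.10 ± 0.38 (limma adjusted p = 0.0185) and probe 758 had 1.97 ± 0.81 (adjusted p = 0.219). There probe 90 pointed the other way at -0.15 ± 0.17 (limma adjusted p = 0.66). The values of probes 777 and 90 lay further apart than their errors, though this gap was not itself tested, and all 3 probes were higher in mdx over both tissues. Over the 16 treated arrays the probes correlated with a Spearman rho of 0.38 (90 with 758), 0.503 (90 with 777) and 0.691 (758 with 777). In the untreated table the 3 pairs gave 0.601 to 0.728 over 18 arrays, and there the 3 probes were high on the same arrays.

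In untreated mice, Igf2 was near the 12-week level on most arrays and far above it on a few, which were not divided by strain. In BL10 diaphragm the log2 ratio was 2.44 at 3 weeks and 0.05, -0.23 and -0.11 at 5, 9 and 12 weeks. In mdx diaphragm it was 0.25, 0.16 and -0.10 before 12 weeks (3, 5 and 9 weeks). At 12 weeks it was 2.80 on the Sample 1 array and 0.21 on the Sample 2 array. High Igf2 thus stood on 1 young BL10 array and on 1 of the 2 adult mdx arrays. In BL10 hindlimb it was -0.24, 0.11, -0.02 and -0.33, and in mdx hindlimb 1.09, 0.32 and -0.18 at the first 3 ages. At 12 weeks mdx hindlimb had 1.97 (Sample 1) and -0.21 (Sample 2). On BL10 diaphragm at 3 weeks, Igf2 had the highest ratio of the 557 genes with a value there, but this array is one of the 3 with many missing ratios. On mdx hindlimb at 3 weeks, where no ratio was missing, it ranked 2 of 637.

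The untreated strain difference of Igf2 was 0.37 ± 0.43 over both tissues (95% interval -0.56 to 1.30, limma adjusted p = 0.688), in a comparison where 0 of 637 genes were called and 90 had an unadjusted p under 0.05. It came to -0.02 without both Sample 1 arrays (limma adjusted p = 0.98). By tissue it was 0.07 ± 0.61 in diaphragm and 0.67 ± 0.61 in hindlimb (limma adjusted p = 0.976 and 0.729), with 0 genes called in diaphragm, where 62 had an unadjusted p under 0.05, and 0.157% called in hindlimb.

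**Figure D3:**
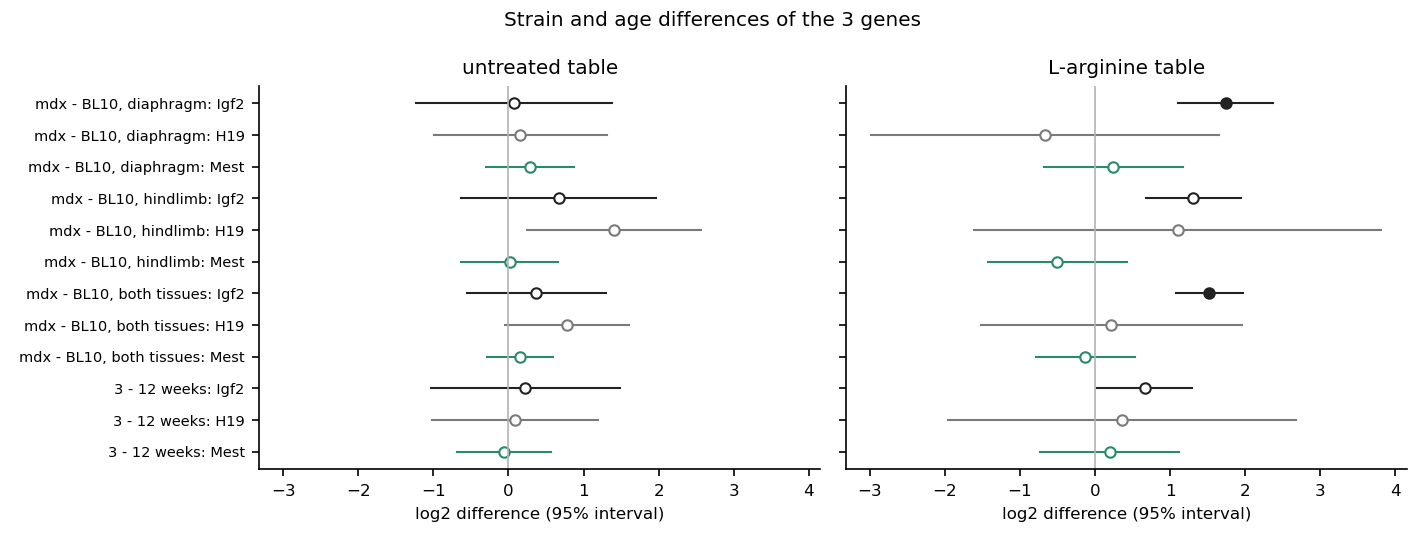
Log2 differences (horizontal axis) between mdx and BL10 and between 3 and 12 weeks for Igf2, H19 and Mest in the untreated and the L-arginine table, from limma fits over all genes; bars are 95% intervals and filled points have an adjusted p under 0.05. The 2 filled points are both Igf2 in the L-arginine table, at 1.74 in diaphragm and 1.52 over both tissues, and the H19 intervals there are the widest.

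The H19 values of the strains lay apart in untreated hindlimb, in a difference that did not pass the threshold. All 4 BL10 hindlimb arrays lay below their 12-week RNA, at -0.74, -0.34, -0.43 and -0.94 at 3, 5, 9 and 12 weeks. The arrays at 3 and 12 weeks were low as a whole, with median ratios of 0.73 and 0.78 over all probes. At 5 and 9 weeks the medians were 1 and 1.01. Of the genes on each array, 26.4%, 19.8%, 7.69% and 15.6% lay at or below H19, in order of age. The array at 12 weeks had the lowest H19 value, although it and its reference are both labelled BL10 at 12 weeks. BL10 diaphragm at 12 weeks, labelled alike in the same way, had -0.62. The mdx hindlimb arrays had 0.80, 0.60 and -0.15 at the first 3 ages, then 2.82 (Sample 1) and 0.01 (Sample 2). The lowest mdx value was thus above the highest BL10 value, a pattern of 2.48% of genes. The difference was 1.41 ± 0.54 (95% interval 0.25 to 2.56), with an unadjusted p of 0.0202 and a limma adjusted p of 0.387, rank 30 of 637. It was 1.00 (limma adjusted p = 0.997) without the 3 BL10 arrays that had many missing ratios, of which 2 are hindlimb arrays. In untreated diaphragm H19 was 1.51, 0.82, -0.12 and -0.62 in BL10 at 3, 5, 9 and 12 weeks. In mdx diaphragm it was 0.39, 0.23 and 0.33, then 1.52 (Sample 1) and 0.41 (Sample 2), and the groups overlapped (difference 0.16 ± 0.54, limma adjusted p = 0.942).

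In the treated table H19 rested on 13 of 16 arrays. Its ratio was below 0 on mdx diaphragm at 3 weeks (-0.89) and on mdx hindlimb at 5 and 9 weeks (-4.77 and -3.69). Its highest values were in BL10: 3.46 in diaphragm at 3 weeks, the highest of the 636 genes on that array, and 3.02 in hindlimb at 5 weeks. The other BL10 diaphragm arrays had 0.21, 0.34 and 0.58, and the other BL10 hindlimb arrays -0.58, 0.82 and -0.29 at 3, 9 and 12 weeks. In mdx, H19 had 0.77, 0.19 and 0.42 in diaphragm at 5, 9 and 12 weeks, and 1.11 and 2.38 in hindlimb at 3 and 12 weeks. The strain difference was 0.22 ± 0.77 over both tissues, with a 95% interval from -1.52 to 1.96 (limma adjusted p = 0.91), and its sign changed when any of 4 single arrays was left out. An effect of the size measured for Igf2 would lie within this interval.

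For Mest no strain difference passed the threshold in either table. On the untreated arrays its log2 ratio ran from -0.17 to 0.31 in BL10 diaphragm and from 0.16 to 0.23 on the 3 BL10 hindlimb arrays with a value. In mdx it ran from -0.29 to 0.31 apart from the Sample 1 arrays, at 1.13 in diaphragm and 0.80 in hindlimb. In treated diaphragm all 8 arrays lay above 0, from 0.40 to 0.58 in BL10 and from 0.50 to 0.98 in mdx. Treated hindlimb spread wider, from 0.12 to 1.43 in BL10 and from -1.43 at 5 weeks to 1.29 at 3 weeks in mdx. The strain difference over both tissues was 0.15 ± 0.20 untreated (95% interval -0.29 to 0.59, limma adjusted p = 0.725) and -0.13 ± 0.30 treated (-0.78 to 0.53, adjusted p = 0.864).

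Both arrays labelled Sample 1 carried all 3 genes high, although both of their channels are labelled mdx at 12 weeks. The Sample 1 diaphragm array had Igf2 at 6.97-fold, H19 at 2.87-fold and Mest at 2.19-fold, and the Sample 2 array of the same label had 1.15, 1.33 and 1.00. In hindlimb, Sample 1 had 3.91, 7.06 and 1.74 and Sample 2 had 0.866, 1.01 and 0.82. Igf2 ranked 2 of 632 genes on the Sample 1 diaphragm array and 3 of 636 on the hindlimb array, and H19 ranked 8 and 2. The macrophage markers Lyz2, C1qb, Cd68 and Gpnmb averaged 1.31 and 1.16 on the log2 scale on the Sample 1 arrays against -0.34 and 0.26 on Sample 2, and the matrix markers Col1a2, Col5a2 and Postn 1.62 and 0.85 against 0.25 and 0.01 (diaphragm, then hindlimb). Over all genes the 2 Sample 1 arrays were most like each other (Spearman rho 0.418, 631 genes). The next in line were treated mdx arrays, at 0.377 for the diaphragm array and 0.313 for the hindlimb array. The part that cell composition plays in these values was not tested. Fewer cells of a type and less RNA per cell cannot be told apart in whole muscle.

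Age alone moved none of the 3 genes past the threshold. From the fits, Igf2 at 3 weeks stood 0.66 ± 0.29 above 12 weeks in the treated table (95% interval 0.03 to 1.30, unadjusted p 0.0413, limma adjusted p = 0.803) and 0.23 ± 0.59 above it in the untreated table (-1.03 to 1.48, adjusted p = 0.933). At 5 weeks the treated value was 0.62 ± 0.29 and at 9 weeks -0.23 ± 0.29 (limma adjusted p = 0.596 and 0.992). H19 at 3 weeks differed by 0.36 ± 1.02 treated and 0.09 ± 0.52 untreated, and Mest by 0.20 ± 0.43 and -0.06 ± 0.29, with limma adjusted p from 0.942 to 0.955. In both tables limma called 0 genes at 3 against 12 weeks, with 29 treated and 51 untreated genes at an unadjusted p under 0.05. In the untreated table the 3-week difference was lower in mdx than in BL10 by 1.85 ± 1.19 for Igf2 and 1.77 ± 0.99 for H19 (limma adjusted p = 0.571 and 0.48), where 1.12% of 623 genes were called. Each age had 1 array per group, so an age stands on 4 arrays a table, or 6 at 12 weeks in the untreated one.

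Against their own 12-week RNA, treated mdx muscles had Igf2 at 1.89 ± 0.14 on average over ages and tissues (limma adjusted p = 7.08e-06), the second smallest p of 633 genes. Of those genes 19.9% were called above and 7.27% below the 12-week RNA, so a call as such is common here. Treated BL10 had 0.36 ± 0.14 (adjusted p = 0.201), where 1.74% were called above. The Igf2 probes differed here as well. In treated BL10, probes 90, 758 and 777 had 0.32, -0.0061 and 0.78 (limma adjusted p = 0.0486, 0.993 and 0.0473, with 56 of 1192 probes called). In treated mdx they had 0.57, 2.10 and 3.00 (limma adjusted p = 0.000549, 0.00315 and 3.75e-06, with 352 called). Mest stood at 0.50 ± 0.21 in treated mdx and 0.63 ± 0.21 in treated BL10, and H19 at 1.17 ± 0.61 and 0.95 ± 0.46, and none of these 4 passed (limma adjusted p from 0.0991 to 0.3).

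Set across the tables, treated mdx Igf2 stood 1.27 ± 0.36 above untreated mdx (limma adjusted p = 0.0508, with 1.74% of 632 genes called higher) and 1.70 above it without both Sample 1 arrays (adjusted p = 0.000298). Leaving out 1 array at a time gave 1.11 to 1.51, and the call was then made without untreated BL10 diaphragm at 3 weeks, either Sample 1 array, untreated BL10 hindlimb at 9 weeks, treated BL10 hindlimb at 3 or 5 weeks, or treated mdx hindlimb at 12 weeks. The same difference was 0.16 ± 0.38 in BL10 (limma adjusted p = 0.857). The strain difference of the table difference, in which any shift that the tables add alike to both strains cancels, was 1.11 ± 0.52 (95% interval 0.04 to 2.18, limma adjusted p = 0.509, 0 of 632 genes called, 58 at an unadjusted p under 0.05). So the larger value in mdx was not shown to differ from that in BL10. H19 differed between the tables by 0.39 ± 0.57 in mdx and 1.06 ± 0.51 in BL10, and Mest by 0.25 ± 0.24 and 0.49 ± 0.27 (limma adjusted p from 0.263 to 0.741).

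Igf2 and H19 moved together on the untreated arrays. Over the 18 arrays Pearson's r was 0.826 (permutation p = 0.00014) and Spearman's rho 0.851 (permutation p = 1e-05, the smallest the permutations can give; 6e-05 adjusted over 6 relations). Without the 2 arrays farthest from the Igf2 median r was 0.889. Since 4 arrays had Igf2 above 1 on the log2 scale, apart from the rest, the relation was also taken over the other 14, where r was 0.694 and rho 0.723 (permutation p = 0.00747 and 0.00457). With each group's mean subtracted rho was 0.849, without the Sample 1 arrays 0.797 and without the 3 arrays with many missing ratios 0.75. With arrays centred on their median rho was 0.695, and with a running median over neighbouring probes subtracted it was 0.734. One Igf2 probe, 882, lies next to the H19 probe, 881, in the table's order, and alone correlated with it at 0.867. With that probe left out, the other Igf2 probes still gave 0.745. By rho over the untreated arrays, H19 was second among all genes in likeness to Igf2, after the ribosomal RNA Rn28s1 (0.857). In likeness to H19, Igf2 was 4th on these arrays, where Ccni had 0.87. On the treated arrays H19 ranked 187th of 627 genes in likeness to Igf2.

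**Figure D4:**
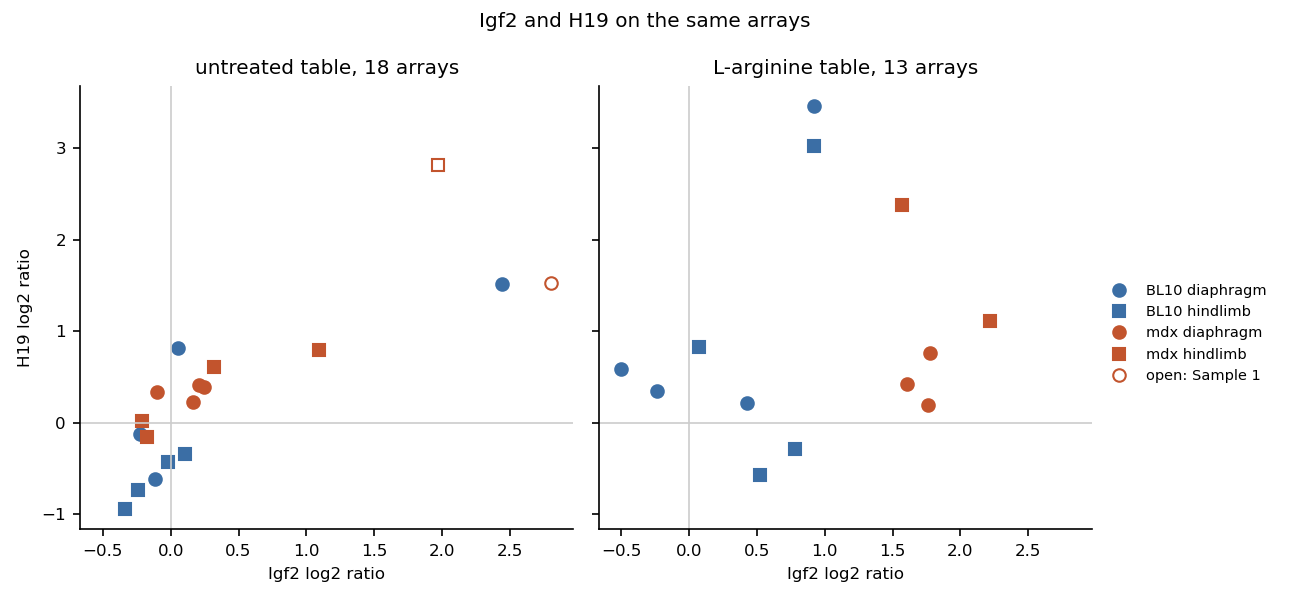
Log2 ratio of H19 against that of Igf2 on the same array, for the untreated table (18 arrays) and the L-arginine table (13 arrays with both values); colour marks the strain, shape the tissue, and open symbols the Sample 1 arrays. The untreated points rise together (Spearman rho 0.851), and the treated points do not line up (rho 0.253).

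Mest followed Igf2 less tightly on the untreated arrays, with r 0.81 and rho 0.733 over 17 arrays (permutation p = 0.00041 and 0.00122, the latter 0.00366 adjusted) and r 0.776 without 2 arrays. Without both Sample 1 arrays r was 0.491 and rho 0.615, and over the 13 arrays with Igf2 below 1 rho was 0.476 (adjusted permutation p = 0.152), so it was not detected once the few high arrays were left out. H19 with Mest gave r 0.646 and rho 0.433 (adjusted permutation p = 0.0195 and 0.166), and r 0.225 without both Sample 1 arrays. In the treated table none of the 3 relations was detected. Igf2 with H19 gave r 0.195 and rho 0.253 over 13 arrays, Igf2 with Mest r -0.242 and rho 0.0692 over 16, and H19 with Mest r -0.245 and rho -0.223 over 13, with adjusted permutation p from 0.506 to 0.8. Whether the Igf2 and H19 relation differs between the tables was not tested, and 3 of the 8 treated mdx arrays gave it no point.

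Likeness over all arrays of both tables was taken as Spearman rho after each gene's mean in its table was subtracted, with 627 genes compared. The genes most like Igf2 were Postn, the matrix protein periostin (0.808), Rn28s1, a ribosomal RNA (0.791), Ankrd1, a stretch-responsive muscle protein (0.757), Tuba1a, a tubulin (0.743), and Tfrc, the transferrin receptor (0.729). H19 came 16th (0.594, 31 arrays) and Mest 55th (0.427, 33 arrays). H19 was most like Rbfox2, a splicing factor (0.68), Ccni (0.661), S100a10 (0.656), Fubp1 (0.645) and Rbm3, a cold-induced RNA-binding protein (0.629), with Igf2 10th. Mest was most like Pla1a, a phospholipase (0.567), Postn (0.494), Vim, the filament protein vimentin (0.461), Ramac and Ywhaz (0.45 each), with Igf2 11th. Some of these genes were less alike in 1 table than in the other. Untreated and treated rho lay furthest apart for Tfrc with Igf2 (0.439 and 0.838), Ccni with H19 (0.87 and 0.39) and Postn with Mest (0.679 and 0.219). The arrays share strain, age and 12-week reference, so these values are descriptions.

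Few other genes of the pathway were on the array. Of 28 listed genes of the IGF system 3 were tested: Igf2r, the receptor that clears IGF2, Htra1, a protease that cuts IGF-binding proteins, and Akt2, a kinase downstream of the receptors. None was called for strain over both tissues in the treated table (Htra1 0.47 ± 0.21, Igf2r 0.29 ± 0.17, Akt2 0.19 ± 0.13, limma adjusted p = 0.372, 0.503 and 0.58), nor in the untreated table, where they had 0.06 to 0.25. Of 45 other imprinted genes 3 were tested, Igf2r, Copg2, the neighbour of Mest, and Gatm, an enzyme of creatine synthesis that uses arginine. They had 0.21 to 0.53 on the treated arrays, with none called, a median of 0.29 beside 0.06 for all genes and 3 of 3 above 0 beside 58% of all genes. Against 12-week RNA, treated mdx had Akt2 at 0.47 ± 0.09, Igf2r at 0.48 ± 0.12, Gatm at 0.38 ± 0.08 and Copg2 at 0.49 ± 0.13, all called (limma adjusted p from 0.00347 to 0.0157), where 27.2% of all genes were called in either direction. Htra1 was not called there.

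Of 26 listed genes of regenerating and developing muscle 9 were tested, and on the treated arrays 2 of them were called higher in mdx and 0 lower, where 1.58% of all genes were called. Of the 9, 8 were above 0, with a median of 0.73 beside 0.06 over all genes. The 2 were Ankrd1 (1.20 ± 0.21, limma adjusted p = 0.0211) and Tuba1a (0.73 ± 0.15, adjusted p = 0.0378); Sln, the calcium pump inhibitor sarcolipin, had 0.84 ± 0.19 (adjusted p = 0.052). Of the marker lists, 2 of 4 macrophage genes were called, Lyz2 (1.38 ± 0.20, limma adjusted p = 0.00445) and C1qb (0.73 ± 0.14, adjusted p = 0.0335). Among 3 matrix genes Postn was called (1.16 ± 0.23, limma adjusted p = 0.0335), and of 9 muscle fibre genes none was, with a median of 0.07. Of the liver markers 4 were tested and none was called (median 0.27), nor was the endothelial marker Pecam1 (-0.79 ± 0.40) or the fat marker Scd1 (-0.23 ± 0.09). Among untreated arrays, limma called no gene of these lists, with Ankrd1 at 1.54 ± 0.67, Tuba1a at 0.36 ± 0.20 and Vim at 0.44 ± 0.25 (limma adjusted p = 0.326, 0.4 and 0.434).

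The mean of the 4 macrophage markers ran from 0.75 to 1.32 on the treated mdx arrays and from -0.39 to 0.57 on the treated BL10 arrays, so it separated the strains as Igf2 did. The mean of the 3 matrix markers ran from 0.80 to 1.85 in treated mdx and from 0.24 to 1.45 in treated BL10. Of 11 listed macrophage genes and 12 listed matrix genes, the others had no probe of a single symbol. The BL10 diaphragm array at 3 weeks with Igf2 at 2.44 had the macrophage markers at -0.41 and the matrix markers at 1.19, while the Sample 1 arrays had both lists high. That BL10 array is one of the 3 with many missing ratios. The part of either marker list in the strain difference was not tested.

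**Figure D5:**
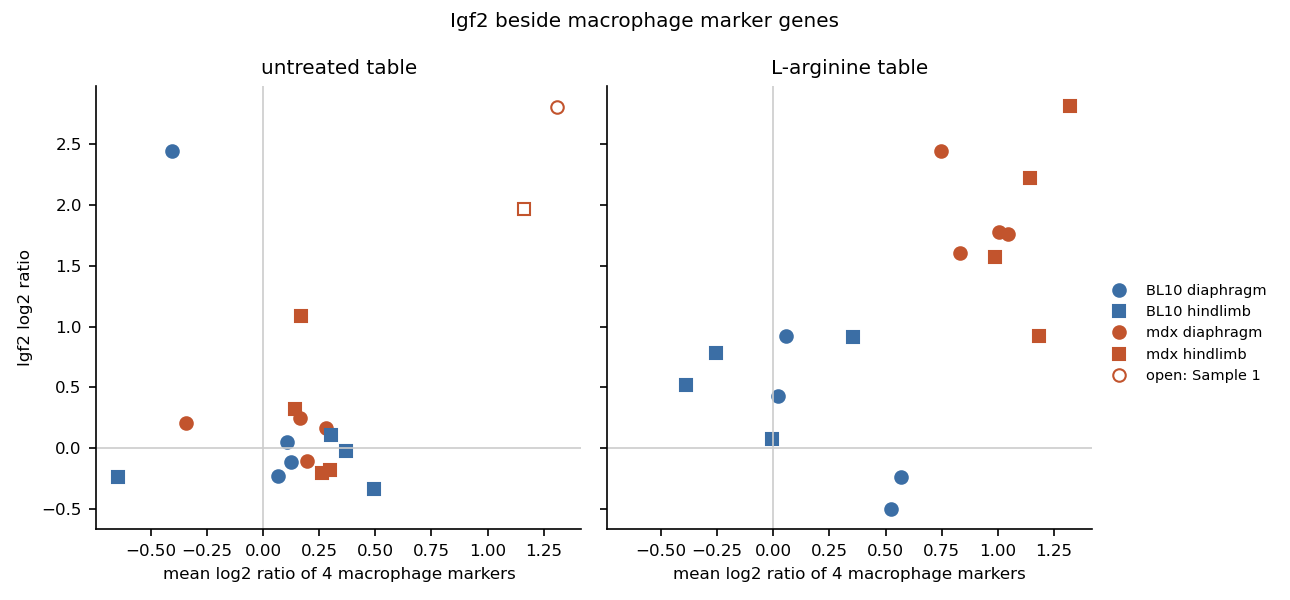
Igf2 log2 ratio against the mean log2 ratio of the macrophage markers Lyz2, C1qb, Cd68 and Gpnmb on the same array, for the untreated and the L-arginine table; colour marks the strain, shape the tissue, and open symbols the Sample 1 arrays. Treated mdx arrays and the Sample 1 arrays lie to the right, from 0.75 to 1.32, and the untreated BL10 diaphragm array at 3 weeks has high Igf2 (2.44) with markers at -0.41.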

How the data were processed

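Total RNA of 34 samples was measured on arrays of 2 colours. The deposited value tables hold 1 score per probe and array; from the values (medians near 1, some at 0 or below) a linear ratio between the channels was inferred. The sources used here do not give the scanner, background correction, normalisation or dye assignment. Probes were named from the platform annotation. Ratios above 0 were turned into log2 and averaged over the probes of a gene with no further normalisation. Genes with a value on at least 75% of a table's arrays were tested with limma 3.58.1 (R 4.3.3; lmFit and eBayes, terms for group and age, Benjamini-Hochberg adjustment, threshold 0.05), fitted over all genes of a table. In simulated data with 200 changed genes, a log2 change of 1 was found for 81% of them in the untreated strain comparison (637 genes) and 86% in the treated one (633 genes). The simulation drew independent noise and changed more genes than the real fits called, which makes the adjusted threshold easier to pass. These shares are therefore not the chance of finding such a change in Igf2, H19 or Mest, whose standard errors are given above. The number of arrays limits the precision. Correlations used 100000 permutations. Genes named from the IGF, imprinted and muscle regeneration lists were those past the threshold in a contrast. For the strain difference over both tissues, the 3 of each list with the largest moderated statistic were added. Marker genes are given for that strain difference, and their calls in other contrasts are not given. Likeness lists give the 5 highest Spearman rho over at least 30 arrays, after each gene's mean in its table was subtracted. The members, lists and tests were chosen with earlier results of these data known. Alternatives covered scaling, missing ratios, probe averaging, the filter, age, array weights and single arrays left out. Settings chosen after seeing the data left out the Sample 1 arrays, the 3 BL10 arrays with most ratios at 0 or below, arrays with Igf2 above 1 or the Igf2 probe beside H19, and, for correlations, subtracted a running median over 51 neighbouring probes. Figures were drawn with matplotlib 3.10.9.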

Additional observations from a re-analysis of the deposited data

Results flagged for a closer look

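Within groups of 4 or 5 arrays, 5 values lay apart from the rest of their group by more than Dixon's 95% critical value allows; 21 groups were tested, 3 groups were too small, and chance flags about 1 in 20 groups. In untreated mdx diaphragm these were the Sample 1 values of Igf2 (2.80 on the log2 scale), H19 (1.52) and Mest (1.13), all 3 from 1 array. In untreated BL10 diaphragm it was Igf2 at 3 weeks (2.44), and in treated BL10 diaphragm H19 at 3 weeks (3.46). The ages differ within a group, so an array apart from its group is also an array of another age, except for Sample 1 and Sample 2.

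A probe that the annotation gives to both Nctc1, a non-coding RNA downstream of H19, and H19 was left out by the single-symbol rule. It reached a ratio of 14.73 in treated BL10 hindlimb at 3 weeks, 11.77 there at 5 weeks and 12.85 in treated mdx hindlimb at 3 weeks. On the array with 14.73 the H19 probe itself had 0.67. In the untreated table its highest ratio was 6.60, on the Sample 1 hindlimb array, where the H19 probe had 7.06.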

How the results depend on the processing

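Of 471 values from settings other than leaving out 1 array, 406 kept their direction and side of the threshold, 37 changed sign, 15 lost a call and 13 gained one. The cause was not tested. Arrays of the groups were paired by age through the age term; without it the treated Igf2 strain difference over both tissues kept its call (1.52, limma adjusted p 0.0107). No pairing by replicate number was made, since the labels give no such numbers across groups. No single-probe fit was made between the tables, whose probes differ. The treated Igf2 strain difference over both tissues lost its call with the median over probes (1.49, adjusted p 0.062), without the 12-week arrays (1.55), and for the single probes 90 (0.25) and 758 (2.10); calls over all genes ran from 0 to 18. In hindlimb the treated Igf2 strain difference gained a call with the running median (1.12, limma adjusted p 0.0378) and for probe 777 (2.10), while probe 90 gave -0.15. The mdx table difference of Igf2 passed the threshold with arrays centred (1.27), quantile normalisation (1.32), the running median (1.30), a pseudocount of 0.1 (1.21), no filter (1.27), array weights (1.24), Sample 1 and 2 averaged (1.40), without Sample 1 (1.70), the 12-week arrays (1.73) or the 3 BL10 arrays (1.29); leave-one-out values ran from 1.11 to 1.51.

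Untreated, Igf2 over both tissues turned to -0.016 without Sample 1 and -0.10 without the 12-week arrays, and in diaphragm to -0.086 with Sample 1 and 2 averaged, -0.046 with arrays centred, -0.072 with quantile normalisation, -0.27 with the running median, -0.14 for probe 664, -0.41 without Sample 1 and -0.65 without the 12-week arrays. H19 in diaphragm turned to -0.42 with the running median, -0.056 without Sample 1 and -0.42 without the 12-week arrays. Mest over both tissues turned to -0.059 with the running median and -0.022 without Sample 1, and in hindlimb to -0.085 centred, -0.18 with the running median, -0.14 without Sample 1, -0.022 without the 12-week arrays and -0.027 without the 3 BL10 arrays. At 3 against 12 weeks, untreated Igf2 and H19 turned to -0.38 and -0.36 without the 3 BL10 arrays, H19 to -0.13 with array weights, Mest to 0.28 without Sample 1, and treated Mest to -0.11 with array weights.

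Treated H19 over both tissues turned to -0.27 with equal spread, -0.047 with quantile normalisation, -1.67 with ratios of 0 or below set to the lowest positive ratio and -0.48 without the 12-week arrays. With that floor it was -1.45 in hindlimb, -0.86 at 3 against 12 weeks and -1.35 between the tables in mdx; in hindlimb it was -0.20 without the 12-week arrays, and in diaphragm 0.078 with that tissue alone. Treated Igf2 with Mest gave rho -0.00882 centred and -0.276 within groups. Untreated Igf2 with Mest lost its call with the running median (rho 0.566) and over arrays with Igf2 up to 1 (0.476); H19 with Mest passed within groups (0.62) and turned to -0.105 over those arrays.

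Leaving out 1 array, the log2 differences ran as follows. Untreated at 3 against 12 weeks they were -0.35 to 0.64 for Igf2, -0.28 to 0.50 for H19 and -0.22 to 0.11 for Mest; treated, -1.30 to 1.42 for H19 and -0.12 to 0.46 for Mest. Untreated strain differences were -0.41 to 0.67 for Igf2 and -0.37 to 0.54 for H19 in diaphragm, and -0.12 to 0.18 for Mest in hindlimb. Treated strain differences were -0.33 to 0.87 for H19 and -0.29 to 0.15 for Mest over both tissues, -1.54 to 0.078 for H19 in diaphragm, and -0.13 to 2.24 for H19 and -0.81 to 0.059 for Mest in hindlimb. Between the tables in mdx H19 ran from -0.034 to 0.81.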

Other observations

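The other probe of the H19 region, annotated with both Nctc1 and H19, had ratios in untreated BL10 hindlimb of 0.18, 0.75, 1.15 and 0.86 at 3, 5, 9 and 12 weeks, against 1.39, 1.41, 0.68, 6.60 on Sample 1 and 0.92 on Sample 2 in mdx hindlimb. In treated mdx diaphragm it had 1.63, 1.59, 2.41 and 2.35, and in treated BL10 diaphragm 1.05, 2.16, 1.34 and 0.96.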
